A study of Mus musculus with 6 samples.

Results

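The 49 genes described here build and serve the primary cilium, the single antenna of a kidney tubule cell. They were taken by symbol, by a rule that uses no measured value, out of the 55367 gene symbols in the deposited files. All 49 symbols were present. By role they comprise 11 subunits of intraflagellar transport complex B (IFT-B), 5 of complex A (IFT-A), 8 genes of the BBSome and its GTPase Arl6, 4 ciliary motor genes, 13 transition zone genes, 3 genes of the inversin compartment and 5 genes of the ciliary membrane and basal body.

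The cilium has no ribosomes, so its proteins are made in the cell body and carried in along the microtubule axoneme. Trains of IFT-B driven by heterotrimeric kinesin carry cargo toward the tip, IFT-A and a dedicated dynein carry it back, and the BBSome takes membrane proteins out. The transition zone gates the base. Polycystin 1, the product of Pkd1, works in this organelle, and mutations in many of the genes listed here cause cystic kidneys.

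The study measured polyA RNA from mouse kidney cells that had been bound by Dolichos biflorus agglutinin (DBA), a lectin used to enrich collecting duct epithelium, and captured on beads after enzymatic digestion of the kidney. There were 3 groups of 2 libraries labelled Day115, namely wild-type mice (WT) with saline, Pkd1-/- mice (ADPKD) with saline, and Pkd1-/- mice treated with mmpp (ADPKD+MMPP), a polyethylene glycol-bearing, manganese-chelating melanin-like nanoparticle injected intravenously. The mutants came from male Pkd1 fl/fl;Cre/Esr1+ mice given tamoxifen in youth to delete the floxed gene. The sources used here do not name the promoter that drives the Cre, do not say whether the WT mice carried it or received tamoxifen, and do not say whether each library came from its own animal, so the spread between the 2 libraries of a group may be technical.

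Levels are fragments per length of transcript and depth of library (FPKM), a scale on which genes of different length can be compared. The steps between low values put the depth at 30600000 to 33100000 reads in the WT and ADPKD libraries and at 11800000 and 10900000 reads in the ADPKD+MMPP libraries. Odd numbers of reads made up 36.8 to 38.4% of the low counts in the first 4 libraries but 8.68 and 8.14% in the ADPKD+MMPP libraries. Low counts in ADPKD+MMPP were thus mostly even, so its read numbers and depth may not compare directly with those of the other libraries. Whether its reads were counted in pairs was not tested. Pkd1 read 17.7 and 17.2 FPKM in WT, 7.64 and 8.91 in ADPKD and 4.34 and 3.99 in ADPKD+MMPP. Esr1, part of which a Cre/Esr1 transgene carries, read 0.242 and 0.161 FPKM in WT, 30.6 and 30.3 in ADPKD and 0.471 and 0.510 in ADPKD+MMPP, so the libraries labelled ADPKD+MMPP did not carry the level of the libraries labelled ADPKD. Every result that involves ADPKD+MMPP rests on those 2 libraries. Treatment, the source or genotype of the mice, the mix of cells and how the values were made cannot be told apart in them.

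Markers of the intended cell were present in each library, except Avpr2, which was at 0 to 0.0587 FPKM. The summed level of 9 principal cell genes of the collecting duct was 2096 and 2796 FPKM in WT, 2502 and 957 in ADPKD and 5437 and 5458 in ADPKD+MMPP. Of the 8 tested, 4 were higher in ADPKD+MMPP than in ADPKD (Aqp2, Aqp3, Scnn1g and Hsd11b2) and 2 were lower (Aqp4 and Scnn1b). For 8 intercalated cell genes the sum was 429 and 462 FPKM in WT, 235 and 71.4 in ADPKD and 604 and 633 in ADPKD+MMPP. Of these 8, 7 were lower in ADPKD than in WT, and 7 were higher in ADPKD+MMPP than in ADPKD. Other kidney cells were present as well. The sum of 14 proximal tubule genes was 849 and 623 FPKM in WT, 2130 and 1509 in ADPKD and 24239 and 23070 in ADPKD+MMPP, and that of 8 macrophage and leukocyte genes was 64.8 and 65.6, 482 and 577, and 1057 and 1108. Of the 7 macrophage and leukocyte genes tested, all 7 were higher in ADPKD than in WT, but after treatment 3 were higher than in ADPKD (Lyz2, C1qa and C1qb) and 4 were lower (Ptprc, Cd68, Adgre1 and Csf1r). The sum of 6 endothelial genes moved the other way, from 841 and 695 FPKM in WT to 292 and 248 in ADPKD and 118 and 121 in ADPKD+MMPP. The sums of 4 podocyte genes were 810 and 1111, 180 and 70.7, and 89.0 and 86.4 FPKM in the same order. Those of 6 thick limb and distal tubule genes were 1461 and 576, 611 and 177, and 235 and 234. Umod was the largest part of the latter in WT and ADPKD. By the thresholds given below, Umod was lower in ADPKD+MMPP than in ADPKD, but 3 of the 6 were higher (Slc12a3, Calb1 and Pvalb). For 6 fibroblast genes the sum was 105 and 83.7 FPKM in WT, 121 and 140 in ADPKD and 97.4 and 105 in ADPKD+MMPP. Of these 6, 4 were higher in ADPKD than in WT and 1 was lower (Pdgfrb). Relative to ADPKD, 1 was higher in ADPKD+MMPP (Col1a1) and 3 were lower. The sum of 9 dissociation and heat shock genes was 9425 and 10054 FPKM in WT, 5790 and 4325 in ADPKD and 11178 and 11326 in ADPKD+MMPP. Of these 9, 6 were higher in ADPKD+MMPP than in ADPKD and 2 were lower (Fosb and Atf3). No gene of these lists was at 0 in both libraries of a group. In bulk RNA, fewer cells of a type and less RNA per cell cannot be told apart, and the part of these shifts in the values below was not tested.

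Most of the 49 genes were of modest abundance. The median over genes of the 6-library mean was 3.13 FPKM, and 14 of the 49 genes had a mean of at least 5 FPKM. Summed over all 49 genes, the level was 206 and 202 FPKM in WT, 222 and 174 in ADPKD and 301 and 301 in ADPKD+MMPP. The median gene did not share the higher sum, at 3.12 and 3.06 FPKM in WT, 3.68 and 2.68 in ADPKD and 2.56 and 3.01 in ADPKD+MMPP. The FPKM sum of all genes in the files was also higher in ADPKD+MMPP (350159 and 351015) than in WT (266194 and 266726) and ADPKD (284459 and 281586).

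The most abundant gene over the 6 libraries was Dync2li1, the light intermediate chain of the dynein that returns cargo from the tip (mean 22.6 FPKM), followed by Cys1, which encodes cystin, the protein lost in the cpk mouse (14.5 FPKM), and Ift20, the IFT-B subunit that also sits on the Golgi apparatus (14.4 FPKM). Ift52, a core IFT-B subunit, followed with 13.4 FPKM, then Kif3b, a motor subunit of the anterograde kinesin, with 12.3 FPKM and Bbs2, a BBSome subunit, with 11.2 FPKM. This order was set partly by the ADPKD+MMPP libraries. In WT, Ift20 led with 17.7 and 19.8 FPKM, and Cys1 with 13.8 and 11.1 overlapped Arl13b with 11.5 and 12.1.

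**Figure D1:**
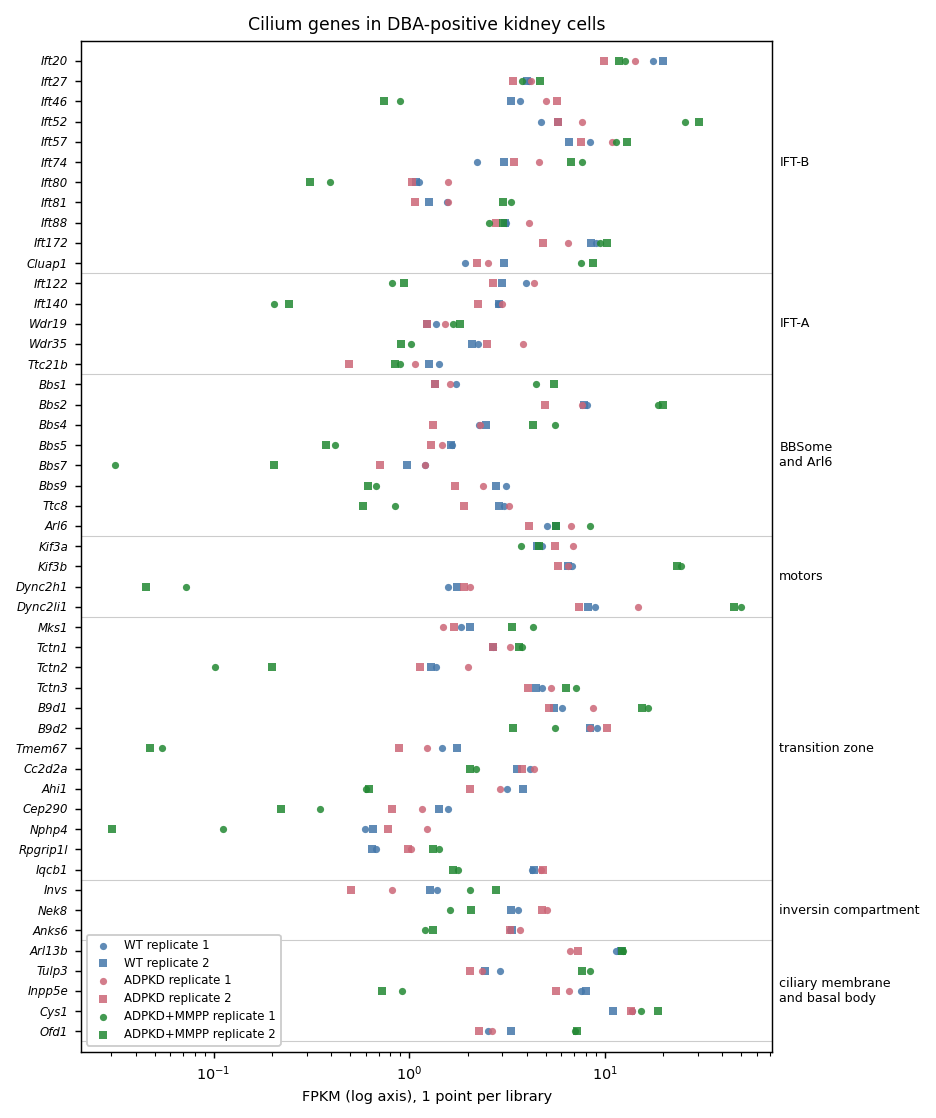
FPKM of each of the 49 genes in the 6 libraries, on a log axis, grouped by role. Points are single libraries coloured by group, and the ADPKD+MMPP libraries hold both the highest point, Dync2li1 at 49.9 FPKM, and the lowest, Nphp4 at 0.0303.

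Nphp4, which encodes a nephrocystin of the transition zone, was the 1 member that did not reach an FPKM of 1 in at least 2 libraries and was left out of the fits. Its level was 0.595 and 0.652 FPKM in WT, 1.23 and 0.784 in ADPKD and 0.112 and 0.0303 in ADPKD+MMPP. The last pair corresponds to 8 and 2 reads.

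Several of these genes are classical targets of the RFX transcription factors, which bind a bipartite element called the X-box. In the RefSeq promoter windows on GRCm38.p6, which run from 250 bases before to 50 bases after each transcript start, an X-box with its arms 0 to 3 bases apart was found on either strand in 7 of the 43 genes with a window (16.3%). The same pattern was found in 474 of all 27025 genes with a window (1.75%). It lay after the start in Bbs1, Ahi1, B9d2 and Tctn1, and before the start in Ift57, Tctn2 and Tctn3. A match before the start is shown for each of these 3 genes, 5′ to 3′ on the strand of the gene with the X-box in capitals. The list was not chosen by this pattern, and whether it regulates these genes was not tested. The sequence of Ift57 is printed on the plus strand of chromosome 16, that of Tctn2 on the plus strand of chromosome 5 and that of Tctn3 on the minus strand of chromosome 19. In Ift57 and Tctn2 the pattern matched the strand opposite to the one printed, and in Tctn3 it matched on either strand. Ift57 held another match before the start, not shown, within chr16:49699222-49699258.
Ift57, chr16:49699195-49699232: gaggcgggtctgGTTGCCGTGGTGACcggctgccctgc
Tctn2, chr5:124598675-124598712: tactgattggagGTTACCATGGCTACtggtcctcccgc
Tctn3, chr19:40612347-40612383: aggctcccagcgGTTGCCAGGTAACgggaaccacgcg

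CREB, the cAMP-responsive factor that the study follows, binds the cAMP response element, whose full palindrome is TGACGTCA. That palindrome was found in the window of 1 of the 43 genes, Ift57 (2.33%), against 549 of all 27025 genes (2.03%). It lies on chromosome 16 ahead of both X-box matches of that gene and is shown with the element in capitals.
Ift57, chr16:49699120-49699151: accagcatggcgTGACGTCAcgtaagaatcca
A match describes the letters of the window and is not a binding site. Of the 7 genes with an X-box, none passed the thresholds between WT and ADPKD. After treatment, relative to ADPKD, Bbs1 was higher, Tctn2, Ahi1 and B9d2 were lower, and Ift57, Tctn1 and Tctn3 did not pass. After centring by transcript structure, described below, Bbs1 (0.94), Ift57 (0.92) and Tctn3 (0.91) were higher, Tctn2 could not be centred and none of the others passed.

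The comparison of ADPKD with WT sets Pkd1-/- libraries beside wild-type ones. They also differed in Esr1 level and in the markers of several cell types, so the part of Pkd1 loss cannot be told apart. Nearly all of the cilium genes stayed within the thresholds. Of the 48 genes fitted, 0 were higher and 2 were lower by at least 1.5-fold with an unadjusted P under 0.05 in limma on log2(FPKM + 1), a scale that understates changes of low genes. The same rule called 14.2% of all 14862 genes tested higher and 12.5% lower. With Benjamini-Hochberg adjustment over all genes in limma, 0 members were higher and 1 was lower. The 48 genes had a median log2 fold change of -0.02, against 0.03 for all genes tested. The 2 ADPKD libraries lay wholly above or below the 2 WT libraries for 23 of the 48 genes, whereas this held for 67.0% of all genes tested.

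**Figure D2:**
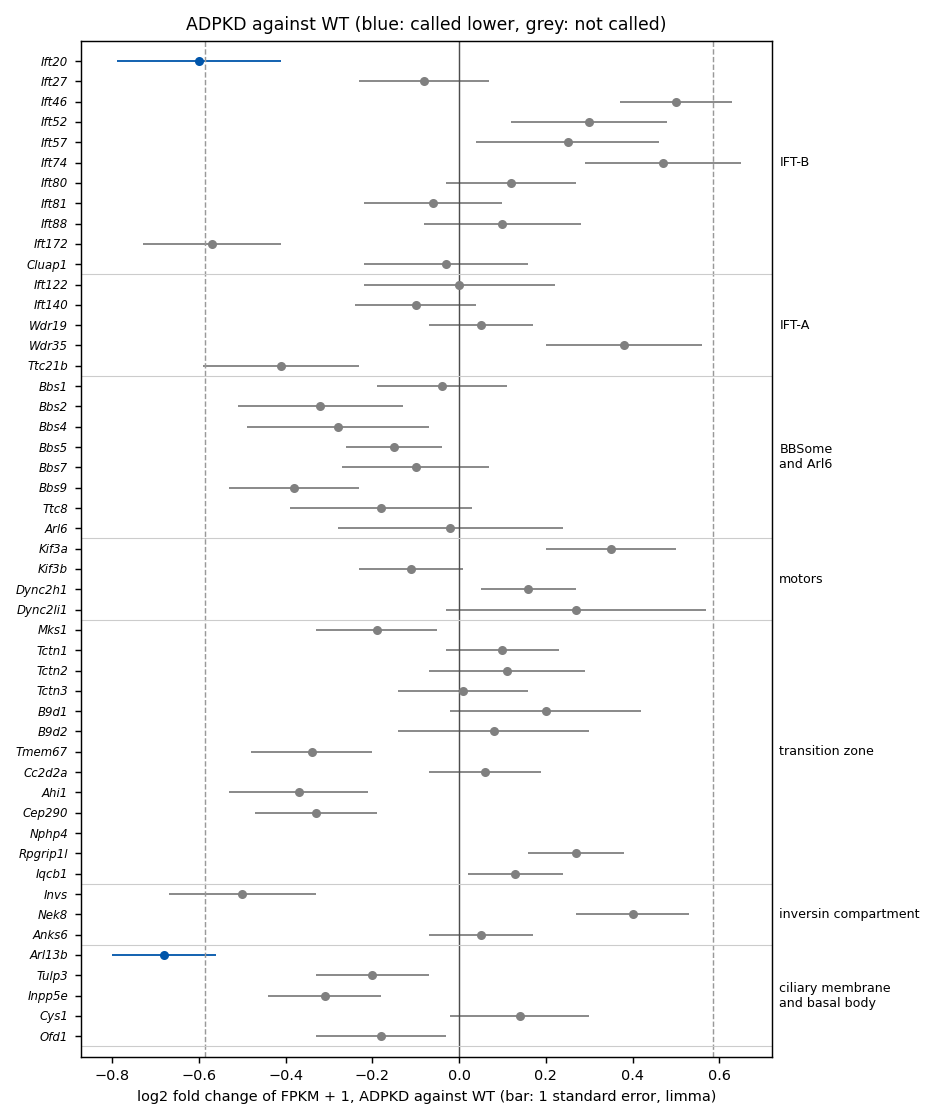
log2 fold change of FPKM + 1 in ADPKD against WT for each member, with bars of 1 standard error from limma and dashed lines at 1.5-fold. Arl13b and Ift20 (blue) passed both thresholds on the low side, and Nphp4 has no point because it was not fitted.

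Arl13b encodes the small GTPase that marks the ciliary membrane and recruits Inpp5e to it. Its level was 11.5 and 12.1 FPKM in WT, 6.63 and 7.36 in ADPKD and 12.4 and 12.3 in ADPKD+MMPP. Both ADPKD libraries were thus below all of the others, and the groups did not overlap. The log2 fold change in ADPKD was -0.68 (SE 0.12, limma adjusted p = 0.0122). The gene spans 62793685 to 62847040 on the minus strand of chromosome 16 (GRCm38). It was the only member lower in ADPKD whichever library was left out.

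Ift20 was the other gene called. It read 17.7 and 19.8 FPKM in WT, 14.4 and 9.98 in ADPKD and 12.8 and 11.9 in ADPKD+MMPP. Both ADPKD libraries were below both WT libraries, but they differed from each other by more than the WT libraries did. The log2 fold change was -0.60 (SE 0.19), and the adjusted p in limma was 0.0648. This call was lost when replicate 2 of ADPKD or replicate 2 of WT was left out.

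A few genes came close to the fold threshold without passing it. They are named here after their values were seen. Ift172, the largest IFT-B subunit, read 9.05 and 8.5 FPKM in WT and 6.47 and 4.83 in ADPKD (log2 fold change -0.57, SE 0.16, limma adjusted p = 0.0466). Invs, which encodes inversin, the organiser of the compartment next to the transition zone, read 1.39 and 1.28 FPKM in WT and 0.823 and 0.502 in ADPKD (log2 fold change -0.50, SE 0.17, limma adjusted p = 0.0778). Ift46, a core IFT-B subunit, had a positive value and read 3.68 and 3.33 FPKM in WT and 5.04 and 5.73 in ADPKD (log2 fold change 0.50, SE 0.13, limma adjusted p = 0.037). With a pseudocount of 0.1 in place of 1, which weighs low genes more, Ift172, Invs and Ift46 passed as well, giving 1 gene higher and 4 lower.

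By role, IFT-B held 1 of the 2 calls (Ift20) among 11 genes, and 6 of its log2 fold changes were positive. The 5 genes of the ciliary membrane and basal body held the other (Arl13b). IFT-A with 5 genes, the BBSome and Arl6 with 8, the motors with 4, the transition zone with 12 fitted and the inversin compartment with 3 had 0 calls each. All 8 values of the BBSome group were negative, with a median log2 fold change of -0.17. None of the 8 passed, and in all 8 genes ADPKD replicate 2 was below replicate 1.

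The 2 ADPKD libraries differed more in these genes than the libraries of the other groups. Replicate 1 was above replicate 2 in 44 of the 49 members, with a median ratio of 1.32. The corresponding count was 31 of 49 in WT (ratio 1.05) and 29 of 49 in ADPKD+MMPP (ratio 1.06), and over all genes tested replicate 1 of ADPKD was the higher in 52.9%. The principal cell sum given above differed in the same direction, at 2502 FPKM in replicate 1 and 957 in replicate 2, and so did that of 8 intercalated cell genes, at 235 and 71.4. Its part in the member values was not tested. The calls moved with the library kept. Without ADPKD replicate 1, 0 members were higher and 6 were lower (Ift20, Ift172, Ttc21b, Bbs2, Invs and Arl13b). Without ADPKD replicate 2, 3 were higher (Ift74, Wdr35 and Dync2li1) and Arl13b alone was lower. Ift74 was also higher without WT replicate 2.

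The comparison of ADPKD+MMPP with ADPKD sets treated beside untreated libraries. In it treatment, the source or genotype of the mice, the mix of cells and how the values were made cannot be told apart. Here 16 of the 48 genes were higher and 20 were lower, and with adjusted p-values in limma the counts were again 16 and 20. The background was 27.9% of all genes higher and 43.0% lower. The members had a median log2 fold change of 0.10, against -0.36 for all genes tested. The groups did not overlap for 43 of the 48 genes, which was the case for 87.8% of all genes. Among the genes called, 44.4% were higher as deposited, but 38.2% with the libraries brought to a common FPKM sum, 50% with median-ratio scaling and 82.8% with quantile normalization. These scalings moved the median of all genes to -0.56, -0.12 and 0.10, so the split between directions depends on the scale, and the changes below are best read against the median of all genes.

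Within IFT-B, 5 of 11 genes were higher, 2 were lower and 4 did not pass. Ift52 rose from 7.68 and 5.8 FPKM in ADPKD to 25.8 and 30.6 in ADPKD+MMPP, with 4.73 and 5.81 in WT. Both treated libraries were above all others, and the log2 fold change was 1.92 (SE 0.18, limma adjusted p = 0.000254). Cluap1, an IFT-B subunit also known as a clusterin-associated protein, read 1.94 and 3.06 FPKM in WT, 2.53 and 2.24 in ADPKD and 7.62 and 8.69 in ADPKD+MMPP (log2 fold change 1.43, SE 0.19, limma adjusted p = 0.000862). Of its exon bases, 22.4% overlap another gene on the same strand and 18.4% a gene on the other strand, so its reads may have been shared. Ift172, Ift74 and Ift81 were the other genes higher, between 0.71 and 0.85 on the log2 scale.

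Ift46 fell in the same complex. Its level was 3.68 and 3.33 FPKM in WT, 5.04 and 5.73 in ADPKD and 0.898 and 0.743 in ADPKD+MMPP. The treated libraries were below all others, and the log2 fold change was -1.81 (SE 0.13, limma adjusted p = 9.04e-05). Ift80 was the other IFT-B gene lower (-0.76). Ift20 did not pass, at 12.8 and 11.9 FPKM after treatment against 14.4 and 9.98 in ADPKD.

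IFT-A had 0 genes higher and 3 lower of 5. Ift140, a core subunit of the complex, read 2.85 and 2.87 FPKM in WT, 2.99 and 2.26 in ADPKD and 0.203 and 0.242 in ADPKD+MMPP, the last pair from 20 and 22 reads (log2 fold change -1.56, SE 0.14, limma adjusted p = 0.0002). Ift122, its partner in the core, read 3.96 and 2.99, 4.37 and 2.7, and 0.821 and 0.941 FPKM in the same order (log2 fold change -1.25, SE 0.22, limma adjusted p = 0.00272). Neither gene passed in ADPKD against WT, and for each of them both treated libraries lay below the other 4. Wdr35 was the third gene lower (-1.07), and Wdr19 and Ttc21b did not pass.

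The motors split. Dync2li1 read 8.94 and 8.28 FPKM in WT, 14.9 and 7.43 in ADPKD and 49.9 and 46.1 in ADPKD+MMPP, giving a log2 fold change of 2.08 (SE 0.30, limma adjusted p = 0.00125). Dync2h1, the heavy chain of the same dynein and the longest transcript on the list, went the other way, from 1.59 and 1.75 FPKM in WT and 2.05 and 1.92 in ADPKD to 0.0725 and 0.0449 in ADPKD+MMPP. The treated values stand for 14 and 8 reads, and the log2 fold change was -1.49 (SE 0.11, limma adjusted p = 0.000114). The partners of 1 motor thus lay at opposite ends of the list. Of the kinesin pair, Kif3b read 6.82 and 6.51 FPKM in WT, 6.48 and 5.78 in ADPKD and 24.6 and 23.6 in ADPKD+MMPP (log2 fold change 1.82, SE 0.12, limma adjusted p = 7.23e-05), whereas Kif3a, which binds it directly, did not pass (-0.49).

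In the BBSome group, 3 genes were higher and 4 were lower of 8. Bbs2 read 8.11 and 7.83 FPKM in WT, 7.64 and 4.95 in ADPKD and 18.8 and 19.9 in ADPKD+MMPP (log2 fold change 1.5, SE 0.19, limma adjusted p = 0.00085). Bbs1 (1.26) and Bbs4 (1.09) were the others higher. Bbs5, Bbs7, Bbs9 and Ttc8 were lower by -0.77 to -1.04 on the log2 scale, and Arl6 did not pass. After the centring by transcript structure described below, 3 genes of the group were higher and 0 were lower. The Bbs7 values after treatment rested on 2 and 12 reads, and those of Bbs5 on 12 and 10.

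The transition zone had 2 genes higher, B9d1 (1.14) and Mks1 (0.89), and 7 lower of 12. The lowest log2 fold change of FPKM + 1 was that of Tctn2, a tectonic of the gate, which read 1.38 and 1.29 FPKM in WT, 2 and 1.14 in ADPKD and 0.102 and 0.198 in ADPKD+MMPP (log2 fold change -1.14, SE 0.18, limma adjusted p = 0.00211). The treated Tctn2 values rested on 10 and 18 reads. The others lower were Tmem67, Cc2d2a, Ahi1, B9d2, Cep290 and Iqcb1, between -0.63 and -1.10. Tmem67, which encodes meckelin, had a mean of 1.06 FPKM in ADPKD and 0.051 in ADPKD+MMPP, the latter from 5 and 4 reads, so without the added 1 its ratio was more extreme than that of Tctn2 (1.57 and 0.15). In the inversin compartment Invs was higher (1.04), and its partners Nek8 (-1.06) and Anks6 (-0.98) were lower.

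Of the 5 genes of the ciliary membrane and basal body, 3 were higher and 1 was lower. Inpp5e, the phosphoinositide phosphatase that sets the lipid make-up of the ciliary membrane, had the lowest log2 fold change of all members. It read 7.58 and 8.03 FPKM in WT, 6.59 and 5.66 in ADPKD and 0.926 and 0.725 in ADPKD+MMPP (log2 fold change -1.96, SE 0.13, limma adjusted p = 7.97e-05). Of its exon bases, 20.3% overlap a gene on the other strand, and whether reads were counted by strand is not stated. Tulp3, the adaptor that hands membrane receptors to IFT-A, read 2.93 and 2.44, 2.36 and 2.05, and 8.47 and 7.69 FPKM in WT, ADPKD and ADPKD+MMPP (log2 fold change 1.5, SE 0.13, limma adjusted p = 0.000203).

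Arl13b was also higher in ADPKD+MMPP than in ADPKD (log2 fold change 0.74, SE 0.12, limma adjusted p = 0.00188), and against WT its difference was 0.06 (SE 0.12, limma adjusted p = 0.65). Ofd1, a centriolar gene, was higher too (1.24). Cys1 did not pass, at 15.4 and 18.8 FPKM after treatment, 13.9 and 13.7 in ADPKD and 13.8 and 11.1 in WT. The values of Arl13b in the 2 comparisons share the ADPKD libraries and are not independent of each other.

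Over the whole list, the changes after treatment moved with how each gene is annotated. For each gene the share of its exon bases that belong to exactly 1 annotated transcript was taken from GENCODE vM21. Across the 48 members, Spearman's rho between that share and the log2 fold change in ADPKD+MMPP against ADPKD was 0.56, and across 12374 protein-coding genes tested it was 0.65. In ADPKD against WT the values were -0.06 and 0.05. The points share their libraries, so these are descriptions. Within IFT-B the order did not hold, since the 2 genes lower had shares of 73.2% (Ift46) and 65.8% (Ift80), above those of 4 of the 5 higher, which were 55.4% for Cluap1, 53.4% for Ift81, 40.1% for Ift172 and 34.3% for Ift74. With exon length, rho was -0.31 over the members and -0.27 over the protein-coding genes.

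**Figure D3:**
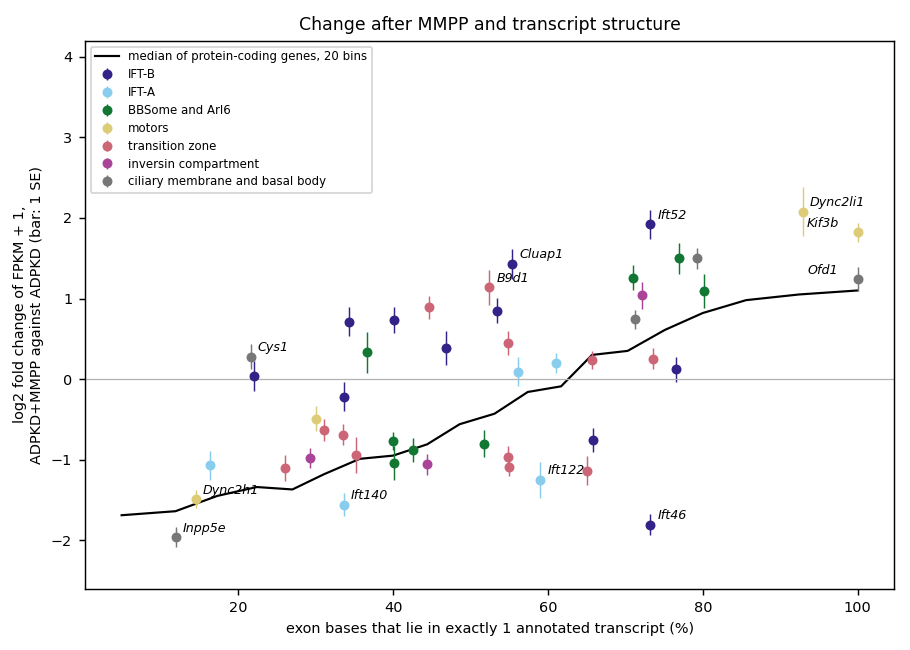
log2 fold change of FPKM + 1 in ADPKD+MMPP against ADPKD (vertical axis) against the percent of exon bases in exactly 1 annotated transcript (horizontal axis) for the members (points) over the protein-coding genes tested. Members with shares up to 40% lie mostly below 0 (median -0.73), and those above 60% mostly above it (median 1.04).

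Of the 16 members with a share up to 40%, 1 was higher and 10 were lower, and their median log2 fold change was -0.73 where the median of protein-coding genes in that range was -1.36. The 15 members between 40 and 60% had 5 higher and 7 lower with a median of 0.09, against -0.55 for genes in the range. The 17 members above 60% had 10 higher and 3 lower with a median of 1.04, against 0.78. The pairs that moved apart sat at different places on this scale. The share was 92.9% for Dync2li1 and 14.5% for Dync2h1, 100% for Kif3b, which has 1 annotated transcript, and 11.9% for Inpp5e. Ift46 had the same share as Ift52, 73.2%.

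When each log2 value was centred on the median of protein-coding genes with a like share, in 20 bins, the picture changed. Of the 47 members that are annotated as protein-coding and were fitted, 20 were higher and 4 were lower in ADPKD+MMPP than in ADPKD. The background on that scale was 27.6% higher and 29.4% lower over 12374 genes. The 16 genes higher as deposited kept 13 calls, and the 20 lower kept 4 (Ift46, Ift122, Ift80 and Iqcb1), while 15 were no longer called and Tctn2, annotated as a processed transcript, could not be centred. Another 7 became higher, namely Arl6, Cys1, Ift20, Ift57, Ift88, Kif3a and Tctn3. After centring, IFT-B had 8 of 11 genes higher and 2 lower, and IFT-A had 0 higher and 1 lower of 5. The BBSome group had 3 higher and 0 lower of 8, the motors 3 and 0 of 4, the transition zone 3 and 1, the inversin compartment 1 and 0 of 3 and the ciliary membrane and basal body 2 and 0 of 5.

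**Figure D4:**
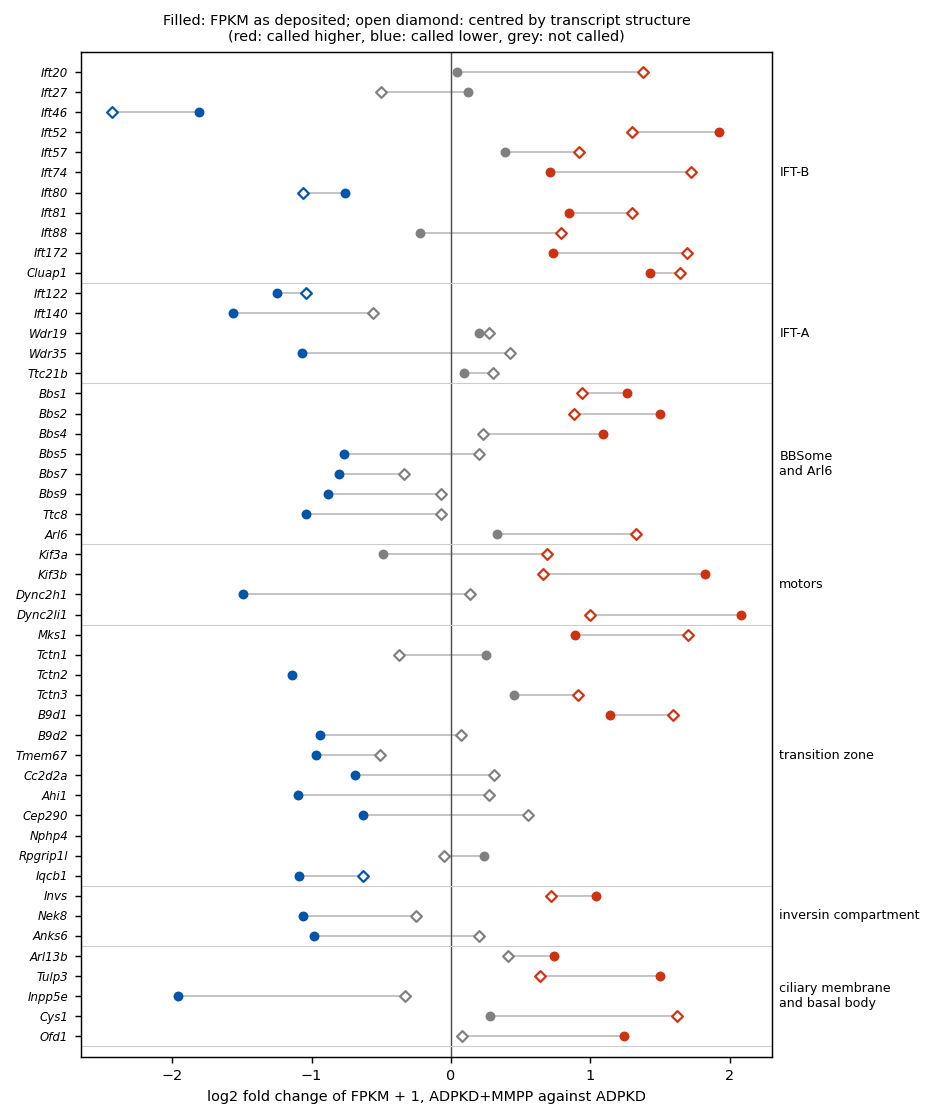
log2 fold change of members in ADPKD+MMPP against ADPKD as deposited and after centring on genes with a like share of exon bases in exactly 1 annotated transcript. Ift46 stayed low (-1.81 and -2.43), whereas Inpp5e moved from -1.96 to -0.33 and Dync2h1 from -1.49 to 0.14.

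Ift52 had a centred log2 fold change of 1.30, Cluap1 of 1.64, Dync2li1 of 1.0, Bbs2 of 0.88, Kif3b of 0.66 and Tulp3 of 0.64, so the 6 genes that rose most as deposited stayed higher with mostly smaller values. Of the 6 that fell most, Ift46 (-2.43) and Ift122 (-1.04) remained lower, Inpp5e (-0.33), Ift140 (-0.56) and Dync2h1 (0.14) did not pass, and Tctn2 could not be centred. Arl13b no longer passed, at 0.41. In ADPKD against WT, the same centring left 0 members higher and the same 2 lower, with backgrounds of 13.6 and 13.4%. Of the 36 members called after treatment, 13 kept their call under every alternative in which they were fitted, leaving aside a fold of at least 2. They were B9d1, Bbs1, Bbs2, Cluap1, Dync2li1, Ift52, Ift81, Invs, Kif3b, Mks1 and Tulp3 on the high side, and Ift46 and Ift122 on the low side. Of these, Bbs1, Cluap1, Ift46, Ift122, Ift81, Invs, Mks1 and Tulp3 had means below 5 FPKM and were not in the fit with that filter.

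The comparison of ADPKD+MMPP with WT asks whether treated cells lay near the WT level. Of the 48 members, 14 were higher and 20 were lower, where 30.1 and 43.8% of all genes tested were. Their median log2 fold change was -0.04, and the groups did not overlap for 45 members, as for 91.9% of all genes. Dync2li1 stood 2.35 above WT (SE 0.30, limma adjusted p = 0.000692), Ift52 stood 2.22 above it (SE 0.18, limma adjusted p = 0.000129), and Inpp5e was lower by -2.27 (SE 0.13, limma adjusted p = 4.39e-05). After centring, 17 were higher and 7 lower, with backgrounds of 30.5 and 31.6%. Of the members near the threshold in ADPKD, Ift172 differed from WT by 0.16 (SE 0.16, limma adjusted p = 0.38) as deposited but was higher by 1.12 after centring (limma adjusted p = 0.000758), and Ift20 was at -0.57 (SE 0.19, limma adjusted p = 0.0328), short of the fold threshold. By share of calls in the higher direction, 41.2% were higher as deposited, and 32.3, 52.9 and 70.0% under a common sum, median-ratio scaling and quantile normalization.

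Genes outside the 49 that work beside them were read in the same way, from lists of related genes. In ADPKD against WT, 2 of 16 other IFT, BBS and motor genes tested were higher and 1 was lower, 3 of 10 other transition zone genes were higher and 0 were lower, and 0 of 8 genes of the distal appendages passed. The background for these lists and for those that follow was 14.2% of all genes tested higher and 12.5% lower. Ift22, a small GTPase-like IFT-B subunit, read 3.75 and 4.38 and then 9.35 and 6.07 (log2 fold change 0.76, SE 0.20, limma adjusted p = 0.0431). Mkks, a chaperonin-like gene needed to assemble the BBSome, was lower, at 1.62 and 1.2 FPKM in WT and 0.365 and 0.551 in ADPKD (log2 fold change -0.72, SE 0.14, limma adjusted p = 0.0178).

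The carriers that deliver lipid-tailed proteins to the cilium had 2 genes higher and 1 lower of 9 in ADPKD. Pde6d, which carries prenylated Inpp5e into the cilium, read 11.6 and 11.6 FPKM in WT, 7.08 and 4.81 in ADPKD and 2.26 and 1.51 in ADPKD+MMPP (log2 fold change in ADPKD -0.88, SE 0.21, limma adjusted p = 0.0305). Unc119, which carries myristoylated proteins, rose from 1.27 and 1.66 to 3.62 and 3.48 FPKM (log2 fold change 0.89, SE 0.13, limma adjusted p = 0.00769). Of 5 genes tested that promote cilium disassembly, 3 were higher in ADPKD, and 2 of them had a limma adjusted p under 0.05. Hdac6, the tubulin deacetylase, read 8.79 and 7.12 FPKM in WT and 16.9 and 12.2 in ADPKD (log2 fold change 0.79, SE 0.19, limma adjusted p = 0.0302). Nek2, also higher, had low values, at 0.196 and 0.279 FPKM in WT and 1.48 and 0.739 in ADPKD. Of 7 Hedgehog genes tested, 1 was higher, Gli1, a transcription factor and target of that pathway (log2 fold change 0.64, SE 0.14, limma adjusted p = 0.0223).

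Among 7 RFX genes tested, 1 was higher in ADPKD. Rfx2 read 2.31 and 2.85 FPKM in WT, 4.63 and 8.77 in ADPKD and 0.394 and 0.251 in ADPKD+MMPP. Its log2 fold change was 1.05 in ADPKD against WT (SE 0.27, limma adjusted p = 0.0387) and -2.49 in ADPKD+MMPP against ADPKD (SE 0.27, limma adjusted p = 0.000424), and the latter remained lower after centring (-2.28). The 2 values share the ADPKD libraries, which differed from each other, and replicate 2, the higher for Rfx2, was the lower for most of the 49 genes. After treatment, 1 RFX gene was higher and 5 were lower, and after centring 2 were higher and 1 was lower.

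After treatment, relative to ADPKD, the other lists held calls in both directions on the deposited scale, except for the distal appendages and motile cilia, beside the 27.9% higher and 43.0% lower of all genes. Of 16 other IFT, BBS and motor genes 6 were higher and 2 lower, of 10 other transition zone genes 3 were higher and 6 lower, and of 9 carriers 3 were higher and 4 lower. After centring these counts were 8 and 0, 4 and 2, and 3 and 2, beside 27.6% higher and 29.4% lower of all genes centred. The distal appendage genes had 0 higher and 5 lower of 8, and after centring 1 higher and 0 lower. The disassembly genes had 2 higher and 3 lower of 5, and after centring 1 higher and 3 lower. Nedd9, a scaffold that activates Aurora kinase at the cilium base, read 43 and 59.4 FPKM in ADPKD and 3.12 and 3.28 in ADPKD+MMPP (log2 fold change -3.62, SE 0.18, limma adjusted p = 3.44e-05), with -2.24 after centring. Of 7 Hedgehog genes, 3 were higher and 3 lower, and after centring 1 and 3. Of 12 genes of motile cilia, only Foxj1 reached the level for testing.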

How the data were processed

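The authors aligned reads to mm10 with HISAT2 2.1.0 and counted them per gene with featureCounts 1.6.0, per the labels' processing notes. They deposited FPKM per gene and library, 1 file for each of the 6 libraries. The annotation release and the strand setting are not given in the sources used here. The members, the lists of related genes and the alternatives were chosen with earlier results of these data known.

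FPKM replaced counts, so limma 3.58.1 in R 4.3.3 was run on log2(FPKM + 1) over the 14862 genes that reached an FPKM of 1 in 2 or more libraries, in 1 fit of all 6 libraries, in place of the count model of the study. A call needed a fold of at least 1.5 and an unadjusted P under 0.05, and Benjamini-Hochberg adjusted p-values over all genes tested stand beside it. Depth was read from the steps between low FPKM values multiplied by GENCODE vM21 exon length (53253 of the 55367 symbols matched). Of values under 30 reads, 98.3 to 99% were within 0.05 of a whole number, and for members 16 of 16. Depth and read numbers cover counting error only.

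Values in every library are given for members called in ADPKD, the 6 highest and 6 lowest changes after treatment, the 6 highest means and the member under the filter. Of a list of related genes, at most the 2 highest and 2 lowest calls of a comparison are named. The 18 alternatives covered the pseudocount, filters, scalings, model, thresholds, a replicate block, centring by transcript structure and leaving out each library. The fits were tested on simulated data. Promoter windows come from RefSeq. Some items withheld for evaluation are not reported here.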

Additional observations from a re-analysis of the deposited data

How the results depend on the processing

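Groups of 2 libraries limit every test, and a fit that leaves out 1 of them assumes that the remaining library varies like the other groups. In ADPKD+MMPP, Tmem67, Nphp4, Bbs5, Bbs7 and Dync2h1 rest on 2 to 14 reads per library, and Tctn2 rests on 10 and 18. A pseudocount of 0.1 gave 1 member higher and 4 lower in ADPKD against WT, an adjusted p under 0.05 gave 1 lower and a fold of at least 2 gave 0 lower. Leaving out a library gave 0 to 3 higher and 1 to 6 lower. A filter at a mean of 5 FPKM left 14 members, of which ADPKD+MMPP had 7 higher and 1 lower than ADPKD, and 6 higher and 1 lower than WT. That filter uses the mean over all 6 libraries, which the ADPKD+MMPP values help to set, so Inpp5e with a mean of 4.92 FPKM was left out. The members lower were 5 and 9 under quantile normalization, 11 and 10 at a fold of at least 2 and 4 and 7 after centring, in the same order. The median of the members in ADPKD+MMPP against ADPKD was 0.59 with the mean filter, -0.09 with a common FPKM sum, 0.35 with median-ratio scaling, 0.54 with quantile normalization and 0.31 after centring, and -0.07 to 0.27 when a library was left out. Against WT these medians were 0.44, -0.36, 0.16, 0.43 and 0.24. The causes of the changes under scaling and centring were not tested.

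Single members also turned direction. After centring, ADPKD+MMPP against ADPKD gave 0.79 for Ift88, 0.42 for Wdr35, 0.20 for Bbs5, 0.69 for Kif3a, 0.14 for Dync2h1, 0.07 for B9d2, 0.31 for Cc2d2a, 0.27 for Ahi1, 0.55 for Cep290 and 0.20 for Anks6, and quantile normalization gave 0.06 for Cep290. Against WT, centring gave 0.78 for Ift20, -0.66 for Ift27, 0.86 for Ift88, 0.86 for Wdr35, -0.13 for Bbs4, 0.04 for Bbs5, 1.06 for Kif3a, 0.32 for Dync2h1, 0.12 for B9d2, 0.35 for Cc2d2a, 0.24 for Cep290, 0.12 for Nek8, 0.26 for Anks6 and -0.16 for Ofd1, and quantile normalization gave 0.04 for Ift80 and 0.01 for Cc2d2a.

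The labels number the replicates without saying that equal numbers share an animal or batch. Deviations of same-numbered libraries correlated at 0.13 between WT and ADPKD, -0.01 between WT and ADPKD+MMPP and 0.01 between ADPKD and ADPKD+MMPP over 14862 genes. With a replicate block, the counts were 0 higher and 2 lower in ADPKD against WT, 16 and 20 in ADPKD+MMPP against ADPKD, and 14 and 20 in ADPKD+MMPP against WT, and the medians were -0.02, 0.10 and -0.04.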
